A study of Mus musculus with 9 samples.

Results

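The tumour necrosis factor (TNF) ligand and receptor superfamilies were examined across the cell types, genotypes and days of mouse fibroblast cultures on their way to induced neurons (iNs). Members were taken by gene symbol, as Tnf, the numbered Tnfsf and Tnfrsf genes, Lta, Ltb, Ltbr, Fas, Fasl, Cd27, Cd40, Cd40lg, Cd70 and the symbols that begin with Eda, and there were 45 of them among 30406 genes common to all libraries. They comprise 18 ligands, 21 receptors and 4 receptors usually listed as decoys, with Edaradd, the adaptor of the ectodysplasin receptor, and Tnfsf13os, an RNA antisense to Tnfsf13, which are neither. Mouse embryonic fibroblasts (MEFs) from mid-gestation embryos without head and heart, pooled over embryos and of undetermined sex, were transduced in every group with lentiviruses for neuronal transcription factors under doxycycline, and the days are counted from the change to neuronal medium with doxycycline. The 3 genotypes were WT, Per1-/- and Per2-/-, the mutants carrying the targeted alleles Per1tm1Drw and Per2tm1Drw of clock genes on a B6.129 background in all cells. Each genotype gave 1 single-cell 3′ library on day 4, 1 on day 7 and 1 on day 10, so no day held a replicate.

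Ligands of this family are mostly trimers that sit in the cell membrane or are shed from it, and they bind receptors on the same or neighbouring cells. The receptors recruit TRAF adaptors, which lead to NF-kB and kinase signalling, or, where they carry a death domain, FADD and caspase-8, which lead to cell death. TNF is a main product of activated macrophages. Its receptor TNFR1, encoded by Tnfrsf1a, is found on most cell types, whereas TNFR2, encoded by Tnfrsf1b, is largely found on immune and endothelial cells.

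Across the libraries 73557 cells were kept, with 6885 to 13309 barcodes and 126625215 to 353198559 unique molecular identifiers (UMI) per library. The library of WT on day 10 stood apart, with a median of 3552 UMI per barcode against 16135 to 25795 in the others. Any 2 libraries shared 11 to 38 barcode sequences. Clustering gave 7 named classes: 46294 fibroblast-like, 8552 neuron-like, 5678 macrophage-like, 2543 Schwann-like, 2509 skeletal muscle-like, 1027 astrocyte-like and 564 mesothelial-like cells. All 14 macrophage markers were detected in the macrophage-like class, at a summed 15913 to 20767 CPM (UMI of these genes per 1000000 UMI of the class in a library), against 13.4 to 92.7 CPM in fibroblast-like cells. The share of macrophage-like cells ran from 1.43% to 21.03% of a library. A cluster was called fibroblast-like where at least 10 of the fibroblast markers were each seen in at least 50% of its cells, their level was within 3-fold of the highest cluster and no other marker list was raised, so this class is broad. In 7 of its 13 clusters, with 15053 cells, another marker list had a higher mean score than the fibroblast list. Of these, 3 had genes that neurons can express among their leading genes, such as Sv2b or Scn1a, and 1 was led by histone genes of dividing cells. Per1 stood at 9.12 to 10.3 CPM in Per1-/- and 6.31 to 7.79 CPM in WT libraries, and Per2 at 4.99 to 6.42 CPM in Per2-/- and 2.58 to 3.02 CPM in WT libraries. Neither gene was thus lower in the libraries labelled as its mutant. Whether the counted 3′ tags lie outside the altered part of each allele was not tested, so these counts do not check the genotypes, which are given as labelled. Y-linked genes summed to 209 and 216 CPM in Per1-/- on days 7 and 10, where Xist was at 0.0679 and 0.0598 CPM. In the other libraries they summed to 50.8 to 118 CPM, and Xist was at 345 to 990 CPM. Sex and genotype thus cannot be fully told apart in the contrasts of Per1-/-, least of all without Per1-/- day 4.

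Ligands and receptors of the family were unevenly spread over the cell classes. Among 20 members that reached 5 CPM in a class, Tnf, Tnfrsf1b, Tnfrsf11a and Tnfrsf13b were higher in macrophage-like cells of every library than in any library of the other 6 classes, and 6.91% of all genes at that level met the same criterion. Tnfrsf21 met it in astrocyte-like cells (1.97% of genes) and Tnfsf18 in mesothelial-like cells (0.504% of genes). For Tnfsf18 this rests on 1 UMI of WT day 4, 0.518 against 0.414 CPM in the highest macrophage-like library. The unnamed cluster led by Cx3cr1 and Siglech is not among the 7 classes, and its highest library, at 93.4 CPM of Tnfrsf21, lay above 2 astrocyte-like libraries. These classes come from clustering of the same cells, without the members, so the levels by class are a description and were not tested. A level given without its libraries is that of the class summed over the 9 libraries, and single libraries can lie above it.

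**Figure D1:**
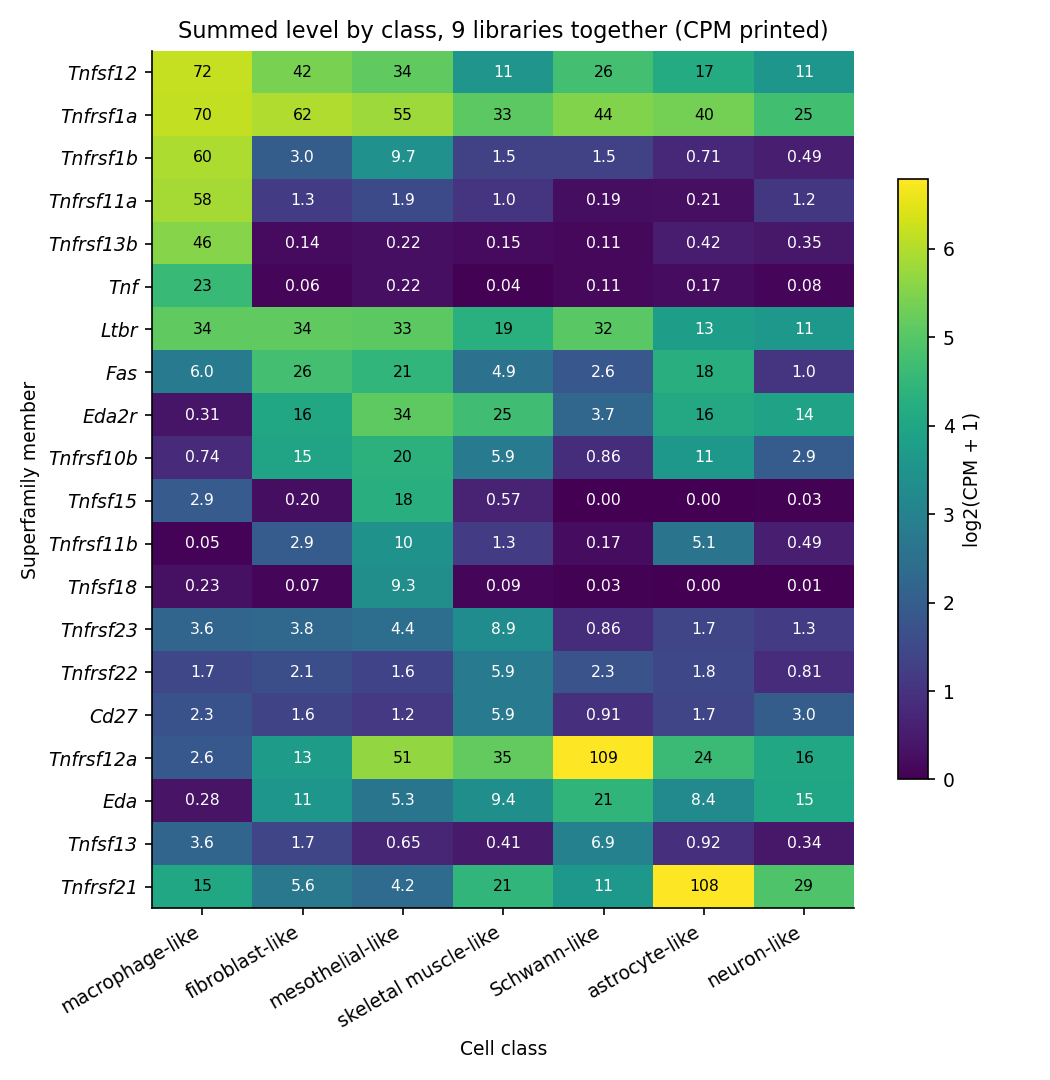
Heat map of the 20 members that reached 5 CPM in a class (rows) in the 7 named cell classes (columns). The colour gives log2(CPM + 1) and the printed number the CPM of the class summed over the 9 libraries; Tnf, Tnfrsf1b, Tnfrsf11a and Tnfrsf13b are bright in the macrophage-like column alone, and Tnfrsf1a, Ltbr and Tnfsf12 are bright in most columns.

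The 250 bases before the start are shown for the 4 members whose macrophage-like libraries all lay above every library of the other classes. Tnfsf12 and Tnfrsf1a stood at higher levels in macrophage-like cells, 71.7 and 70.3 CPM, but overlapped other classes and are not shown. The sequences are from RefSeq on GRCm38.p6, 5′ to 3′ on the strand of the gene. Capitals mark GAGGAAG, a core that the macrophage factor PU.1 can bind, on either strand. It was found in Tnf, on the opposite strand from 118 bases before the start, and in Tnfrsf1b, from 208 bases before it.
Tnf (chr17:35202008-35202257, minus strand): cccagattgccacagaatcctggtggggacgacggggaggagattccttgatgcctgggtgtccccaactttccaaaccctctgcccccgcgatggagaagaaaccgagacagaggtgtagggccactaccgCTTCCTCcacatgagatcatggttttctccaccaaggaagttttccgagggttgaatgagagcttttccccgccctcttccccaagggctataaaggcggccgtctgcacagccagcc
Tnfrsf1b (chr4:145246871-145247120, minus strand): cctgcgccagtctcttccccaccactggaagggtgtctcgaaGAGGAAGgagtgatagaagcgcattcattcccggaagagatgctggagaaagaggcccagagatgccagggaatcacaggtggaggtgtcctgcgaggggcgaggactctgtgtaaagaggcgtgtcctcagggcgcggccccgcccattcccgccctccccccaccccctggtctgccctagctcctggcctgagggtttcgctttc
Tnfrsf11a (chr1:105780473-105780722, plus strand): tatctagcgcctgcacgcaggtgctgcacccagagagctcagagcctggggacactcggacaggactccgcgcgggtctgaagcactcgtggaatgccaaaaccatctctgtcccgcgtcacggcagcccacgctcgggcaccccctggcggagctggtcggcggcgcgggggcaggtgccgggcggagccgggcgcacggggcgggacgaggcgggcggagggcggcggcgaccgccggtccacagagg
Tnfrsf13b (chr11:61126505-61126754, plus strand): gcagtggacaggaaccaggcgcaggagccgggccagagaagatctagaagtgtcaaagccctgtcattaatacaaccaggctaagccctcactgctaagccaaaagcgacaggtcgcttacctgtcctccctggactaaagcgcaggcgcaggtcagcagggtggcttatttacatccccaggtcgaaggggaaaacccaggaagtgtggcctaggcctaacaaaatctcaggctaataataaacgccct
Of 32851 promoters of this length, 10.6% hold GAGGAAG. 34 of the 45 members had 37 promoters in the table, of which 6 held it: those of Tnf, Tnfrsf1b, Ltb, Tnfrsf25, Tnfsf18 and Eda2r. The E-box CACGTG, a site of the CLOCK and BMAL1 proteins that PER proteins repress, was found in 4 member promoters (Fas, Ltbr, Tnfrsf4 and Tnfrsf8) and in 6.02% of all promoters. The NF-kB sequence, 3 G, any 2 bases, 3 T and 2 C, was found in 3 (Ltb, Tnfrsf25 and Tnfrsf9) and in 1.41% of all promoters. Neither was found in the windows printed above. The motifs do not overlap one another there, and a match is a string of letters, with no measure of binding.

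Among the named classes, Tnf reached 1 CPM over all libraries in macrophage-like cells alone, with 3208 UMI in that class. On days 4, 7 and 10 Tnf stood at 53.0, 26.3 and 18.4 CPM in WT, 38.3, 31.4 and 17.3 in Per1-/- and 47.0, 14.5 and 9.76 in Per2-/-. Of these, day 4 libraries were the highest and the Per2-/- libraries of days 7 and 10 the lowest. Outside that class it reached at most 0.217 CPM summed over libraries, in mesothelial-like cells, and 0.0622 CPM (95% interval 0.0486 to 0.0785) in fibroblast-like and 0.0801 CPM (95% interval 0.0384 to 0.147) in neuron-like cells. Macrophage markers were not at 0 in those classes (a summed 15.1 to 150.4 CPM in neuron-like cells), and their part in these low levels was not tested. TNFR1 transcripts were found in every class. Tnfrsf1a in macrophage-like cells was at 63.0, 69.4 and 74.0 CPM in WT, 69.9, 67.1 and 74.6 in Per1-/- and 68.1, 69.2 and 71.6 in Per2-/-. In fibroblast-like cells it was at 70.2, 63.5 and 57.7 CPM in WT, 62.6, 77.8 and 75.3 in Per1-/- and 61.2, 44.5 and 54.5 in Per2-/-, so both classes overlapped. Neuron-like cells held 28.9, 22.4 and 19.96 CPM in WT, 28.1, 23.8 and 29.97 in Per1-/- and 23.3, 20.9 and 24.2 in Per2-/-, below every library of both. TNFR2 transcripts separated the classes: Tnfrsf1b was at 49.7, 54.3 and 53.0 CPM in WT, 54.8, 59.6 and 53.2 in Per1-/- and 49.3, 71.6 and 71.5 in Per2-/- in macrophage-like cells. The next class, mesothelial-like cells, ranged from 4.14 to 24.8 CPM with a median of 7.496. Macrophage markers there summed to 2245 CPM in WT on day 10 and 14.2 to 145 CPM in the other libraries. The highest mesothelial-like value of Tnfrsf1b was not that of WT on day 10. Neuron-like cells had 61 UMI of Tnfrsf1b in all, 0.488 CPM (95% interval 0.374 to 0.627).

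The share of cells with a UMI gave the same order after each cell was thinned to 3000 UMI. Tnf was then seen in 5.20% (95% interval 4.63 to 5.81%) of macrophage-like and 0.0194% (95% interval 0.00889 to 0.0369%) of fibroblast-like cells, and before thinning in 26.5% and 0.153%. Intervals for shares are exact Clopper-Pearson intervals, those for CPM exact Poisson intervals, and both cover counting error only. Tnfrsf1a was seen in 19.5% (95% interval 18.5 to 20.6%) of macrophage-like, 16.5% (95% interval 16.2 to 16.9%) of fibroblast-like and 7.11% (95% interval 6.58 to 7.68%) of neuron-like cells (76.0%, 69.4% and 27.2% before thinning). Tnfrsf1b was seen in 16.1% (95% interval 15.2 to 17.1%), 0.814% (95% interval 0.735 to 0.900%) and 0.152% (95% interval 0.0810 to 0.260%) of these classes (68.8%, 6.22% and 0.678% before thinning). The median depth was 22083 UMI in macrophage-like, 21821 in fibroblast-like and 11898 in neuron-like cells, and thinning left out at most 5 cells of a class. Of 1502 macrophage-like cells with a Tnf UMI, 1231 also held one of Tnfrsf1a and 1056 one of Tnfrsf1b.

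Lymphotoxins bind LTBR, a receptor of stromal and myeloid cells. Ltbr was found in all classes, with 34.8, 36.5 and 33.8 CPM in WT, 33.0, 42.8 and 38.7 in Per1-/- and 29.2, 28.4 and 35.8 in Per2-/- in fibroblast-like cells on days 4, 7 and 10. Macrophage-like cells held 32.0 to 38.4 CPM with a median of 35.2, within the fibroblast range, and neuron-like cells 7.13 to 14.98 CPM with a median of 10.9, below it. Its ligands were scarce. Ltb peaked at 0.976 CPM in macrophage-like cells, Lta at 0.217 CPM in mesothelial-like cells and Tnfsf14 (LIGHT) at 0.153 CPM in macrophage-like cells. The second LIGHT receptor, Tnfrsf14 (HVEM), was at 1.30, 1.18 and 1.21 CPM in WT, 0.794, 2.43 and 1.79 in Per1-/- and 1.42, 2.41 and 2.03 in Per2-/- in macrophage-like cells.

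Among the death receptors Fas, the receptor of FASL, was at 26.5, 30.3 and 30.5 CPM in WT, 21.01, 36.7 and 27.8 in Per1-/- and 24.5, 19.9 and 27.6 in Per2-/- in fibroblast-like cells. Mesothelial-like cells at 0 to 26.6 CPM with a median of 21.1 and astrocyte-like cells at 7.22 to 35.4 CPM with a median of 16.3 overlapped them. All of the fibroblast-like libraries lay above the 2.60 to 8.14 CPM with a median of 5.68 of macrophage-like and the 0.204 to 1.55 CPM with a median of 0.852 of neuron-like cells. Fasl had 28 UMI in all cells and reached 0.120 CPM at most, in neuron-like cells. Tnfrsf10b, the mouse receptor of TRAIL, was at 21.8, 13.6 and 20.1 CPM in WT, 21.8, 17.6 and 24.4 in Per1-/- and 19.98, 15.3 and 13.6 in Per2-/- in mesothelial-like cells and 9.18 to 19.6 CPM with a median of 16.0 in fibroblast-like cells, which overlapped. Its ligand Tnfsf10 reached 1.17 CPM, in macrophage-like cells. Tnfrsf21 (DR6), a death-domain receptor of the nervous system, was at 77.8, 135 and 89.9 CPM in WT, 102, 168 and 143 in Per1-/- and 122, 94.4 and 126 in Per2-/- in astrocyte-like cells. It was at 25.7, 30.05 and 34.4 CPM in WT, 27.3, 26.4 and 38.2 in Per1-/- and 28.8, 31.1 and 34.9 in Per2-/- in neuron-like cells, the class next in order, with no overlap. After thinning it was seen in 22.2% (95% interval 19.7 to 24.9%) of astrocyte-like and 8.07% (95% interval 7.504 to 8.67%) of neuron-like cells (65.8% and 29.3% before). The decoy receptors Tnfrsf22 and Tnfrsf23, which bind TRAIL without a death domain, were highest in skeletal muscle-like cells, with 7.30, 6.36 and 14.5 CPM in WT, 5.46, 6.1998 and 6.08 in Per1-/- and 3.91, 3.32 and 3.53 in Per2-/- for Tnfrsf22. Tnfrsf23 was at 9.25, 10.995 and 13.7 CPM in WT, 7.87, 16.2 and 7.30 in Per1-/- and 6.88, 4.81 and 5.01 in Per2-/-. Schwann-like libraries overlapped the values of Tnfrsf22 and mesothelial-like ones those of Tnfrsf23. Tnfrsf26, the third gene of that set, was instead highest in macrophage-like cells, at 2.03 to 12.0 CPM with a median of 5.55. These 3 genes are close paralogues, so reads may have been split among them. The ligand Tnfsf15 (TL1A) was at 23.8, 27.1 and 0 CPM in WT, 29.8, 16.4 and 16.4 in Per1-/- and 6.31, 4.44 and 4.53 in Per2-/- in mesothelial-like cells, where WT on day 10 had 14 cells. Summed over libraries its receptor Tnfrsf25 (DR3) was highest in skeletal muscle-like cells, at 2.52 CPM, and its highest mesothelial-like library was at 20.1 CPM.

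RANK, encoded by Tnfrsf11a, drives osteoclast formation from macrophage precursors. In macrophage-like cells Tnfrsf11a was at 66.3, 66.9 and 69.7 CPM in WT, 72.5, 48.1 and 51.0 in Per1-/- and 59.2, 65.1 and 48.8 in Per2-/-. Its ligand Tnfsf11 (RANKL) was all but absent there, with 2 UMI in 5678 cells, and was highest in fibroblast-like cells, at 2.77, 1.65 and 1.55 CPM in WT, 2.51, 1.32 and 1.10 in Per1-/- and 3.09, 1.56 and 1.63 in Per2-/-. Osteoprotegerin, the decoy that captures RANKL, is encoded by Tnfrsf11b, which was at 5.18, 19.2 and 0 CPM in WT, 9.92, 20.9 and 0.444 in Per1-/- and 7.36, 4.44 and 4.53 in Per2-/- in mesothelial-like cells. Astrocyte-like cells ranged from 0 to 20.3 CPM with a median of 2.90 and fibroblast-like cells from 0.860 to 4.501 CPM with a median of 2.43, and these 3 classes overlapped. Macrophage-like cells had 7 UMI of Tnfrsf11b. Osteoclast markers summed to 56.6 to 148 CPM in macrophage-like cells, with 1 of 7 at 0. They summed to 74.4 to 154 CPM in fibroblast-like cells, so this sum did not separate the classes.

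TWEAK, encoded by Tnfsf12, and its receptor FN14, encoded by Tnfrsf12a and induced on injury, differed in their class profiles. Tnfsf12 was at 72.1, 77.4 and 73.5 CPM in WT, 74.8, 77.2 and 66.7 in Per1-/- and 70.3, 67.8 and 70.0 in Per2-/- in macrophage-like cells. Fibroblast-like cells held 37.2, 42.0 and 50.9 CPM in WT, 34.3, 44.6 and 53.0 in Per1-/- and 32.2, 39.9 and 52.3 in Per2-/-, and each library was below its macrophage-like counterpart. Tnfrsf12a was lowest in macrophage-like cells, at 2.05 to 6.26 CPM with a median of 3.09. In Schwann-like cells it was at 153, 112 and 107 CPM in WT, 146, 145 and 119 in Per1-/- and 189, 93.3 and 78.6 in Per2-/-. Mesothelial-like cells ranged from 18.1 to 181 CPM with a median of 51.5 and skeletal muscle-like cells from 25.5 to 48.5 CPM with a median of 37.4, and the mesothelial-like range overlapped the Schwann-like one.

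TACI, encoded by Tnfrsf13b, is best known as a receptor of APRIL and BAFF on B cells. Here Tnfrsf13b was at 35.7, 39.6 and 39.1 CPM in WT, 35.2, 43.6 and 48.2 in Per1-/- and 25.6, 53.9 and 53.8 in Per2-/- in macrophage-like cells. Summed over libraries it reached 0.419 CPM at most in any other named class, in astrocyte-like cells, whose highest library was at 4.60 CPM. B-cell markers in macrophage-like cells summed to 0.516 to 8.90 CPM, with 1 of 5 at 0. The other receptors of the set were low. Summed over libraries, Tnfrsf13c (BAFF receptor) was at most at 2.05 CPM, in skeletal muscle-like cells, and Tnfrsf17 (BCMA) at 0.619 CPM, in macrophage-like cells. The highest astrocyte-like library of Tnfrsf13c was at 2.82 CPM. The ligand Tnfsf13b (BAFF) reached 0.705 CPM. The ligand Tnfsf13 (APRIL) was at 0, 0 and 15.3 CPM in WT, 0, 0 and 13.4 in Per1-/- and 0, 0 and 12.7 in Per2-/- in Schwann-like cells, and its values by day are taken up below.

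Of the ligands and receptors of lymphocyte costimulation, only Tnfsf18 and Cd27 reached 5 CPM in a named class summed over libraries. Tnfsf18 (GITR ligand) reached the highest level of the group, with 0.518, 1.13 and 10.1 CPM in WT, 2.87, 18.3 and 30.2 in Per1-/- and 1.58, 1.97 and 6.04 in Per2-/- in mesothelial-like cells. The WT values rest on 1 UMI in each library, and those of Per2-/- on 3, 4 and 4, against 13, 76 and 68 in Per1-/-. Cd27, the receptor of CD70, was at 3.29, 8.21 and 3.34 CPM in WT, 7.34, 6.41 and 6.08 in Per1-/- and 7.44, 3.48 and 5.01 in Per2-/- in skeletal muscle-like cells, and Cd70 had 6 UMI in all cells. Tnfsf9 (4-1BB ligand), given per library after its values were seen, was at 11.05, 4.82 and 4.30 CPM in WT, 7.79, 5.65 and 3.55 in Per1-/- and 6.26, 1.99 and 1.31 in Per2-/- in macrophage-like cells. Cd40 reached 1.07 CPM and Tnfsf8 (CD30 ligand) 1.57 CPM, both in macrophage-like cells. Summed over libraries, Tnfrsf18 (GITR), the receptor of Tnfsf18, was highest in astrocyte-like cells, at 3.099 CPM, and Tnfrsf4 (OX40) in mesothelial-like cells, at 2.17 CPM. The highest mesothelial-like library of Tnfrsf18 was at 10.1 CPM. No UMI of Cd40lg was seen in any cell of the named classes, which allows up to 0.0218 CPM in macrophage-like cells. T- and NK-cell markers in macrophage-like cells summed to 0 to 0.569 CPM, with 3 of 7 at 0. Of the 25 members below 5 CPM in every named class summed over libraries, the highest was Tnfrsf26 at 4.78 CPM. Summed in the same way, 9 (Lta, Tnfsf14, Fasl, Cd40lg, Cd70, Tnfsf4, Tnfrsf8, Tnfrsf9 and Edar) reached 0.278 CPM at most.

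Ectodysplasin, encoded by Eda, guides the growth of skin appendages, and its A2 form binds EDA2R. Both X-linked genes were all but absent from macrophage-like cells, with 39 UMI of Eda and 43 of Eda2r. Eda was at 9.63, 13.8 and 25.7 CPM in WT, 8.76, 21.6 and 34.8 in Per1-/- and 12.1, 25.2 and 20.1 in Per2-/- in Schwann-like cells and overlapped the 7.98 to 19.4 CPM with a median of 11.9 of neuron-like cells. Eda2r was at 49.2, 27.1 and 0 CPM in WT, 34.4, 30.8 and 42.1 in Per1-/- and 34.2, 22.7 and 16.6 in Per2-/- in mesothelial-like cells. Skeletal muscle-like cells held 12.1 to 37.4 CPM with a median of 24.8, which overlapped. The A1 receptor Edar reached 0.271 CPM, while Edaradd was at 1.95, 2.09 and 1.89 CPM in WT, 1.15, 2.91 and 3.52 in Per1-/- and 1.42, 2.93 and 4.32 in Per2-/- in macrophage-like cells, overlapped by the 0 to 6.80 CPM with a median of 0.870 of astrocyte-like cells.

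Whether loss of Per1 or Per2 changed the family inside macrophages was tested over the 3 days, which serve as the repeats of a genotype. The WT library of day 10 stood apart in this class too, with fibroblast markers at a summed 3246 CPM against 265 to 962 CPM in the other libraries, and 33.6% of its cells in no named class against 4.80% to 10.3%. Of 45 members 27 passed the filter on low counts in macrophage-like cells, and none was called at an adjusted p under 0.05 by edgeR between genotypes, in any of the 3 contrasts. The share of all genes called was 0.00787% for Per1-/- against WT, for Per1-/- against Per2-/- 0.00787% and for Per2-/- against WT 0%. At an unadjusted p under 0.05 there were 3, 3 and 6 of the 27 members, beside 9.96%, 11.4% and 15.3% of all genes. DESeq2 called 0 members in each, beside 29, 84 and 205 genes in all. Without WT day 10 no member was called against WT either. The median log2 fold change of the members was 0.13, 0.04 and 0.03, and that of all genes 0.00, 0.02 and -0.03. The log2 fold change of Tnf for Per1-/- against WT was 0.03 ± 0.25 (SE), adjusted p = 0.988, and Per1-/- was higher on 1 of 3 days by CPM and on 2 of 3 after the scaling of the test. Tnfrsf1a differed by a log2 fold change of 0.13 ± 0.09 (SE), adjusted p = 0.641, Tnfrsf1b by 0.19 ± 0.12 (SE), adjusted p = 0.612, and Tnfrsf13b by 0.25 ± 0.17 (SE), adjusted p = 0.641.

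**Figure D2:**
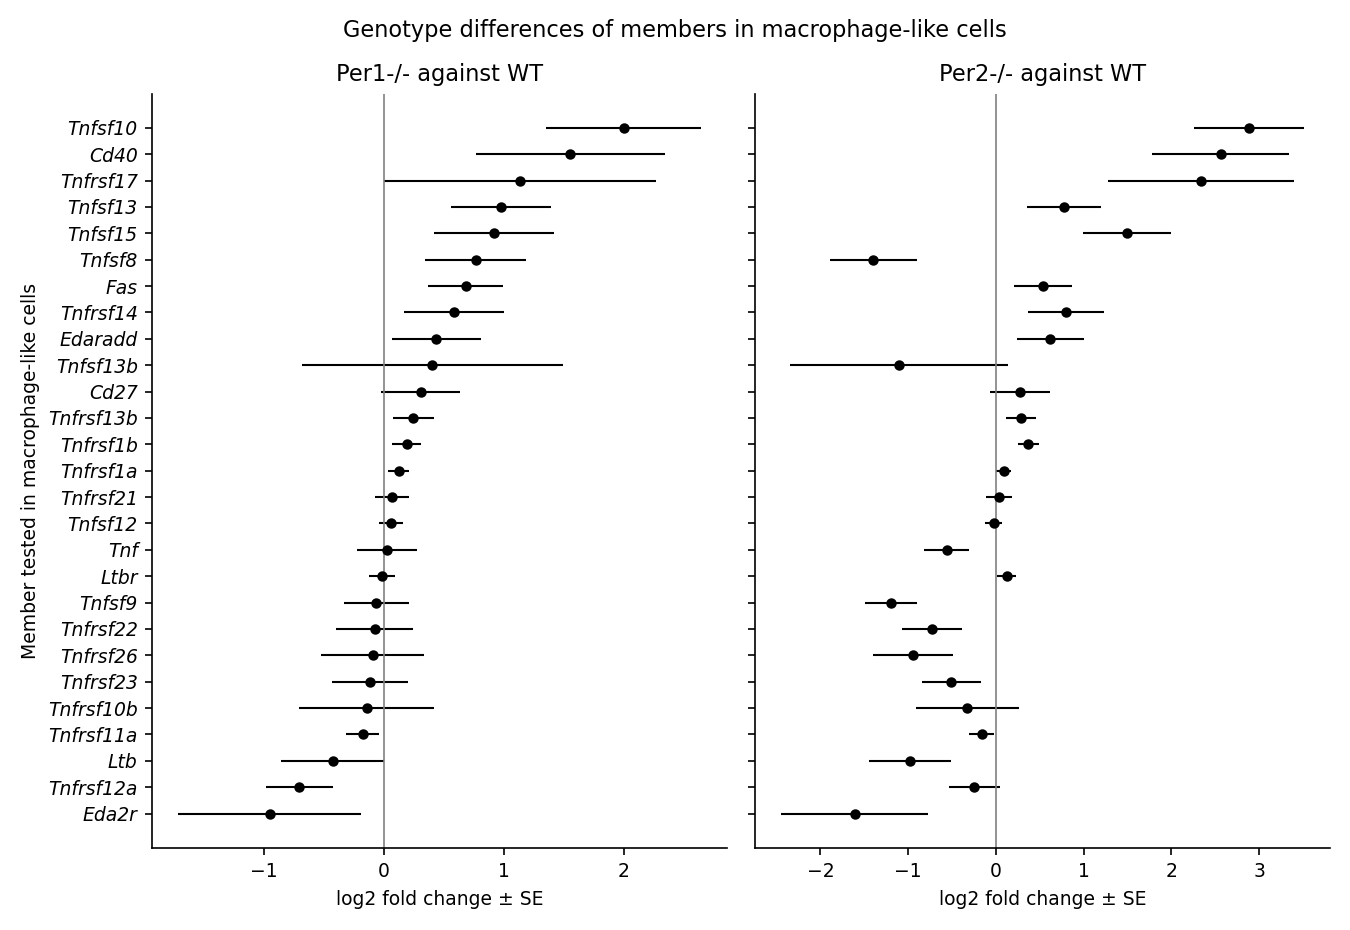
Log2 fold changes (horizontal axis, point) with standard errors (bars) of the 27 members tested in macrophage-like cells (vertical axis), for Per1-/- against WT and Per2-/- against WT. None of the 27 passed an adjusted p of 0.05 in either panel, and Tnf lies near 0 in the first and below 0 in the second.

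In Per2-/- macrophage-like cells Tnf was lower than in WT on each of the 3 days, by a log2 fold change of -0.56 ± 0.26 (SE), adjusted p = 0.346. The within-day ratios of Per2-/- to WT were 0.887 (0.710 to 1.11) at day 4, 0.552 (0.473 to 0.646) at day 7 and 0.530 (0.410 to 0.685) at day 10, with 95% intervals for counting error. With 1 library left out at a time, members were called between genotypes in this class only without Per2-/- on day 4. That library held 159 macrophage-like cells, and WT on day 4 held 114. Without Per2-/- on day 4 the difference in Tnf passed the test at -0.93 ± 0.19, adjusted p = 0.0298. So did Tnfsf9 (-1.51 ± 0.29, adjusted p = 0.0246), Tnfrsf1b (0.49 ± 0.11, adjusted p = 0.0378) and Tnfsf10 (3.03 ± 0.61, adjusted p = 0.0283). With all libraries Tnfsf9 had a log2 fold change of -1.20 ± 0.30 (SE), adjusted p = 0.202, Tnfsf10 2.88 ± 0.63 (SE), adjusted p = 0.199 and Tnfrsf1b 0.37 ± 0.12 (SE), adjusted p = 0.232. For Per1-/- against Per2-/-, leaving out the same library brought 2 calls, Tnf at 0.94 ± 0.18, adjusted p = 0.0371 and Tnfsf9 at 1.43 ± 0.27, adjusted p = 0.0352, beside 0.59 ± 0.25 (SE), adjusted p = 0.432 and 1.14 ± 0.28 (SE), adjusted p = 0.295 with it. How many of all genes were called without that library is not given here, so whether these members stand out is not shown.

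With time the level of Tnf in macrophage-like cells was lower in each genotype on day 7 than on day 4 and on day 10 than on day 7. The first step was a log2 fold change of -0.95 ± 0.25 (SE), adjusted p = 0.138, and the second -0.67 ± 0.25 (SE), adjusted p = 0.440, so that neither passed, although the first did with DESeq2 and with no filter on low counts. The thinned share of macrophage-like cells with Tnf was 7.07% to 9.65% over the day 4 libraries, 4.42% to 6.97% over those of day 7 and 2.44% to 4.67% over those of day 10, and the unthinned share 43.4% to 49.7%, 20.9% to 34.6% and 11.7% to 23.3%. Tnfsf9 showed a log2 fold change of -1.002 ± 0.28 (SE), adjusted p = 0.147, and Tnfrsf13b the other direction, 0.52 ± 0.17 (SE), adjusted p = 0.188. For day 7 against day 4 no member was called by edgeR, beside 0% of genes, and 8 of 27 had an unadjusted p under 0.05, beside 18.5% of genes. DESeq2 called 1 member, Tnf, beside 406 genes in all. For day 10 against day 7, 1 of 27 members was called, Tnfsf13, beside 0.983% of genes.

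**Figure D3:**
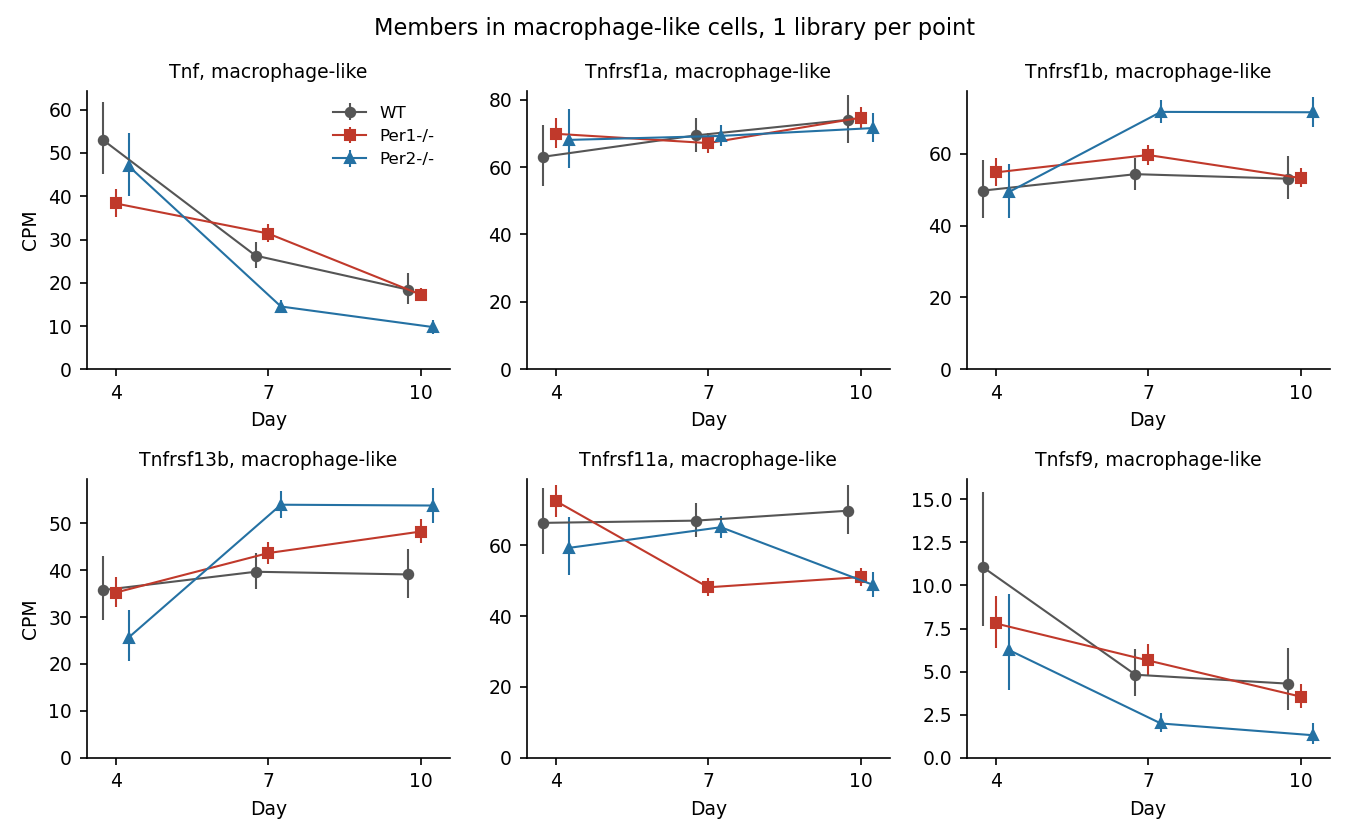
CPM (vertical axis) of 6 members in macrophage-like cells by day (horizontal axis), 1 point per library, with WT in grey circles, Per1-/- in red squares and Per2-/- in blue triangles; bars are 95% Poisson intervals for counting error. Tnf and Tnfsf9 are highest on day 4 in all genotypes, while Tnfrsf1a stays between 63.0 and 74.6 CPM.

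In neuron-like cells 3 of the 21 members that passed the filter were called for day 7 against day 4, beside 16.1% of all genes, so the share of members was near that of all genes and is no result about the family. Eda2r stood at 19.0, 10.8 and 8.55 CPM in WT, 18.7, 6.05 and 5.06 in Per1-/- and 23.0, 7.51 and 2.95 in Per2-/- on days 4, 7 and 10. It fell by 1.33 ± 0.24 (SE), adjusted p = 0.00484 on the log2 scale, in 3 of 3 genotypes. Its ligand gene Eda stood at 19.4, 11.2 and 10.6 CPM in WT, 18.8, 11.9 and 8.43 in Per1-/- and 16.1, 13.4 and 7.98 in Per2-/-, and it fell by 0.58 ± 0.14 (SE), adjusted p = 0.0171 on the log2 scale, also in 3 of 3. Mesothelial markers in neuron-like cells were lower over the same step as well, from a summed 35.1, 35.4 and 96.1 CPM in WT, Per1-/- and Per2-/- to 23.3, 14.1 and 32.9 CPM. Krt8, 1 of these 8 markers, is also among the leading genes of a neuron-like cluster of 638 cells, and the source of the sum was not tested. Mesothelial-like cells were the class highest in Eda2r, at 33.6 CPM summed over libraries. Skeletal muscle-like cells came next at 25.1 CPM, and skeletal muscle markers in neuron-like cells were higher on day 7, as given below. The part of either class in the fall of Eda2r was not tested. Tnfrsf12a, the TWEAK receptor, was at 12.0, 18.5 and 18.9 CPM in WT, 11.4, 42.1 and 20.2 in Per1-/- and 15.4, 20.7 and 13.0 in Per2-/-. It rose by a log2 fold change of 0.96 ± 0.25 (SE), adjusted p = 0.0268 in 3 of 3 genotypes, and the value of Per1-/- on day 7, from 188 UMI in 330 cells, stood above all others. Without that library the fold change was 0.60, without Per1-/- on day 4 0.61 and at the coarser clustering 0.41. Skeletal muscle markers in neuron-like cells were also higher on day 7. They summed to 231, 181 and 356 CPM in WT, Per1-/- and Per2-/- against 94.8, 107 and 225 CPM on day 4. Tnfrsf12a was higher in Schwann-like and mesothelial-like cells than in skeletal muscle-like ones. Schwann markers in neuron-like cells went from 68.1, 63.2 and 57.9 CPM in WT, Per1-/- and Per2-/- to 53.0, 51.1 and 61.4 CPM. Mesothelial markers were lower, as given above. The part of these classes in the change of Tnfrsf12a was not tested. Leaving out WT on day 4, Per1-/- on day 4 or Per1-/- on day 7 left Eda2r as the only member called. Tnfrsf12a also lost its call without Per2-/- on day 7 and Eda without WT on day 7, and at the coarser clustering neither of these was called. For day 10 against day 7 7.25% of genes were called, and 1 member, Tnfsf13, which was no longer called by DESeq2 or without the library of Per2-/- on day 7 or on day 10. Tnfrsf21 had a log2 fold change of 0.36 ± 0.10 (SE), adjusted p = 0.0621. No member was called between genotypes in neuron-like cells. Between Per1-/- and WT 0%, for Per1-/- against Per2-/- 0% and for Per2-/- against WT 0.00684% of genes were called by edgeR. Of the 21 members 1, 1 and 0 had an unadjusted p under 0.05, beside 4.48%, 8.04% and 4.97% of genes. DESeq2 called 0 members in each, beside 16, 39 and 17 genes in all.

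In fibroblast-like cells the transcripts of RANK and RANKL both fell between days 4 and 7. Of 38 members tested 2 were called, beside 1.91% of genes. Tnfrsf11a stood at 2.58, 0.917 and 0.595 CPM in WT, 2.42, 0.455 and 0.267 in Per1-/- and 2.01, 0.806 and 0.410 in Per2-/-. It fell by 1.75 ± 0.25 (SE), adjusted p = 0.0301 on the log2 scale, while macrophage markers in these cells were higher on day 7 (a sum of 24.0 to 69.1 CPM) than on day 4 (13.4 to 28.2 CPM) in each genotype. Tnfsf11, with the values given above, fell by 0.90 ± 0.16 (SE), adjusted p = 0.0462 on the log2 scale. Both were lower on day 7 in 3 of 3 genotypes, and neither range of day 7 overlapped that of day 4. How many of all genes have such ranges is not given. Limited to the 6 clusters in which the fibroblast list scored highest (31241 cells), a setting chosen after seeing the data, Tnfrsf11a was called and Tnfsf11 was not (-0.98, adjusted p = 0.0580). Neither was called at the coarser clustering, at -1.74 and -0.97, where the class is another one, with 24363 cells, since a cluster of 15002 cells rich in fibroblast markers was left unnamed there. Without day 10 neither was called, and both calls were lost without any one of the libraries WT day 4, Per2-/- day 4, WT day 7, Per1-/- day 7, Per2-/- day 7 and Per1-/- day 10. Tnfsf11 alone lost its call also without Per1-/- day 4 or WT day 10 and with the Y-linked level as a covariate. Eda, with 7.78, 11.04 and 14.4 CPM in WT, 9.10, 11.8 and 14.8 in Per1-/- and 6.88, 13.1 and 10.97 in Per2-/-, had a log2 fold change of 0.60 ± 0.13 (SE), adjusted p = 0.0618, opposite in sign to neuron-like cells. For day 10 against day 7 1.16% of genes and 1 of 38 members, Tnfsf13, were called. Without Per2-/- day 4 there were 2, with Eda2r.

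**Figure D4:**
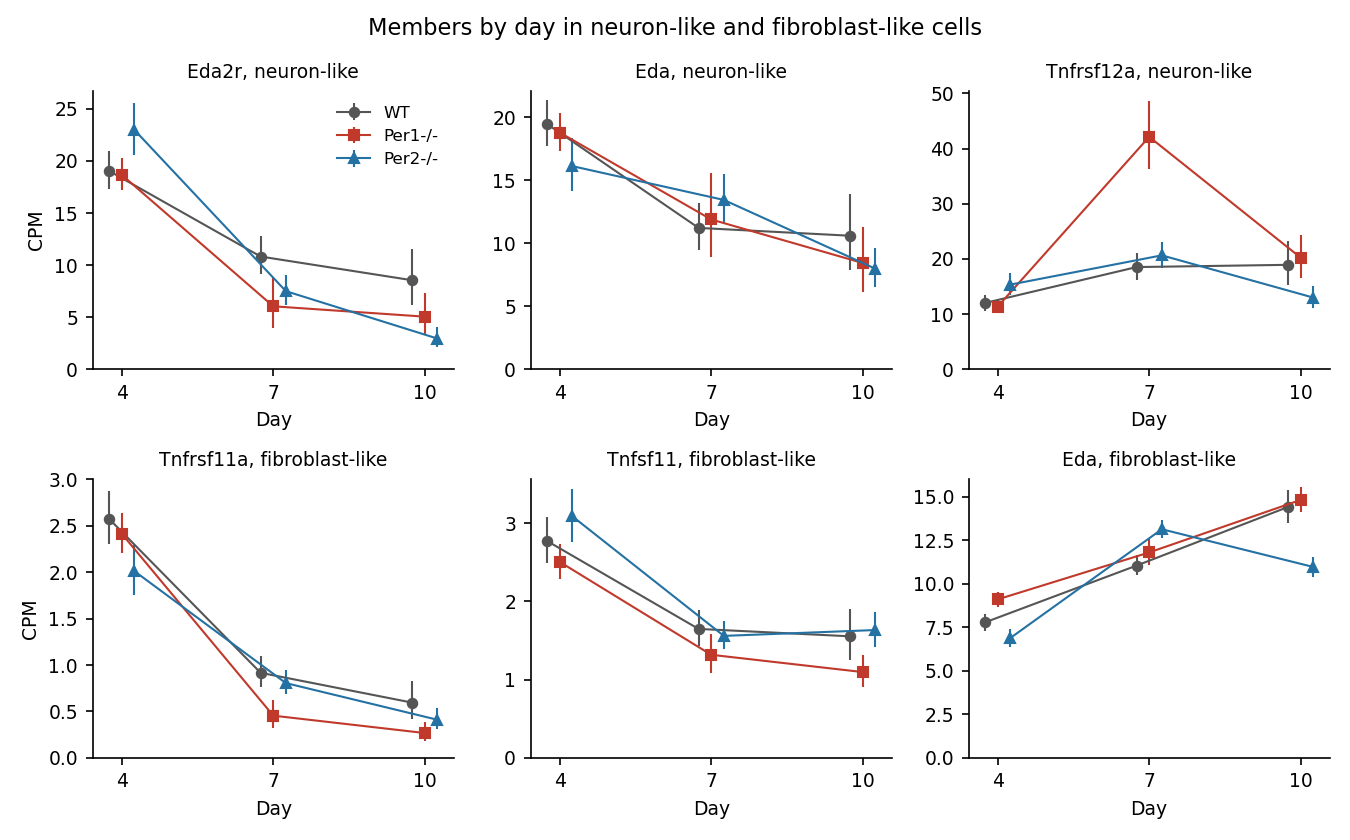
CPM (vertical axis) of Eda2r, Eda and Tnfrsf12a in neuron-like cells and of Tnfrsf11a, Tnfsf11 and Eda in fibroblast-like cells by day (horizontal axis), 1 point per library, with WT in grey circles, Per1-/- in red squares and Per2-/- in blue triangles; bars are 95% Poisson intervals for counting error. Eda declines from day 4 to day 7 in neuron-like cells and is higher on day 7 than on day 4 in fibroblast-like cells, in all genotypes.

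Between genotypes no member was called by edgeR in fibroblast-like cells, where 0%, 0% and 0% of genes were called for Per1-/- against WT, Per1-/- against Per2-/- and Per2-/- against WT. At an unadjusted p under 0.05 there were 5, 7 and 3 of 38 members, beside 8.55%, 14.1% and 7.84% of genes. DESeq2 called 1 (Tnfsf13os), 2 (Tnfsf13os and Eda2r) and 1 (Eda2r), beside 216, 500 and 144 genes in all. Eda2r stood at 24.2, 22.0 and 15.9 CPM in WT, 19.0, 17.2 and 12.0 in Per1-/- and 17.2, 9.64 and 6.94 in Per2-/-. Per2-/- was lowest on each day, with a log2 fold change against WT of -0.88 ± 0.16 (SE), adjusted p = 0.411. Without Per1-/- day 4, Tnfsf13os was called for Per1-/- against WT, and Tnfsf13os and Tnfrsf1a for Per1-/- against Per2-/-.

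Tnfsf13os was lower in Per1-/- than in both other genotypes on each day. The gene lies at chr11:69682138-69691141 (GRCm38, plus strand), antisense to and overlapping Tnfsf13 at chr11:69682846-69685784 and Tnfsf12 at chr11:69686250-69695849 on the minus strand, 0.587 Mb from Per1 at chr11:69095217-69109960 between starts. In fibroblast-like cells it was at 1.61, 1.90 and 2.60 CPM in WT, 0.335, 0.630 and 0.461 in Per1-/- and 1.64, 2.30 and 2.66 in Per2-/- on days 4, 7 and 10. All 3 Per1-/- libraries lay below all 6 others, and the share of all genes that separate in this way is not given. The within-day ratios of Per1-/- to WT were 0.208 (0.155 to 0.275), 0.331 (0.242 to 0.446) and 0.178 (0.126 to 0.246), and those of Per2-/- to WT 1.02 (0.827 to 1.25), 1.21 (1.03 to 1.42) and 1.03 (0.847 to 1.25). In these cells the test gave -2.05 ± 0.22 (SE), adjusted p = 0.188 against WT and -2.22 ± 0.22 (SE), adjusted p = 0.106 against Per2-/-. Neuron-like cells gave -1.28 ± 0.51 (SE), adjusted p = 0.9999 and -1.57 ± 0.50 (SE), adjusted p = 0.457, with the Per1-/- library lower on each day. Over all cells of a culture the difference was called, with -2.08 ± 0.20 (SE), adjusted p = 0.00331 against WT and -2.26 ± 0.20 (SE), adjusted p = 0.0374 against Per2-/-. With the Y-linked level as a covariate neither was called, at -2.07 and -2.25, nor without day 10, at -1.97 and -2.08, and the call against Per2-/- was also lost without any one of 6 libraries. The Per1-/- cells carry the targeted allele on the same chromosome, and the part that flanking sequence or the loss of Per1 has in this difference was not tested. The neighbour Tnfsf12 differed by 0.07 ± 0.09 (SE), adjusted p = 0.877 in fibroblast-like cells.

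Tnfsf13 was near 0 on days 4 and 7 and present on day 10 in every class tested. In fibroblast-like cells it was at 0.00788, 0.0770 and 5.59 CPM in WT, 0.0450, 0.0466 and 6.38 in Per1-/- and 0.0556, 0.0208 and 6.42 in Per2-/-. Macrophage-like cells held 0, 0.0909 and 6.03 CPM in WT, 0.217, 0.103 and 10.4 in Per1-/- and 0, 0.113 and 9.69 in Per2-/-, and neuron-like cells 0, 0.0763 and 1.63 CPM in WT, 0.0315, 0 and 1.31 in Per1-/- and 0, 0 and 1.92 in Per2-/-. Day 10 against day 7 gave 7.004 ± 0.51 (SE), adjusted p = 4.52e-04 in fibroblast-like, 6.39 ± 0.39 (SE), adjusted p = 6.08e-05 in macrophage-like and 5.49 ± 0.89 (SE), adjusted p = 0.00584 in neuron-like cells. A read-through gene, Tnfsfm13, at chr11:69682577-69696098 spans Tnfsf13 and Tnfsf12 on the same strand. It is listed in the feature table of days 4 and 7, where it held 120 to 266 UMI per library, and is not listed in that of day 10. Tnfsf13 held 2 to 18 UMI per library on days 4 and 7 and 612 to 1586 on day 10. Day 10 and the change of feature table cannot be told apart, and reads that fall in both genes are uncertain. Tnfsf12 did not show such a step, with 39.3 to 48.9 CPM in the day 7 and 46.2 to 51.5 CPM in the day 10 libraries over all cells that passed the limits.

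**Figure D5:**
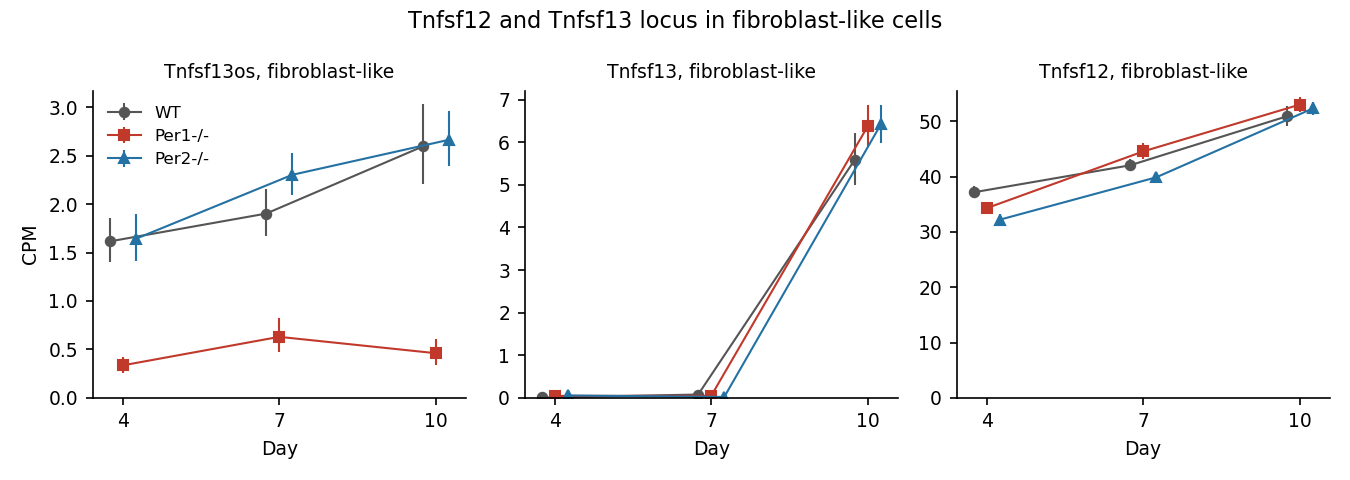
CPM (vertical axis) of Tnfsf13os, Tnfsf13 and Tnfsf12 in fibroblast-like cells by day (horizontal axis), 1 point per library, with WT in grey circles, Per1-/- in red squares and Per2-/- in blue triangles; bars are 95% Poisson intervals for counting error. Per1-/- lies below the other genotypes for Tnfsf13os on each day, and Tnfsf13 leaves 0 on day 10 in all genotypes.

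Whole cultures, the sum of all cells of a library, gave calls that the separate classes did not. Between Per1-/- and WT 5 of 39 members tested were called, beside 2.51% of genes. Beside Tnfsf13os, these were Tnfrsf13b, Tnfrsf1b, Tnfrsf11a and Tnfsf18. On days 4, 7 and 10 Tnfrsf13b was at 0.830, 3.07 and 4.20 CPM in WT, 2.11, 9.91 and 9.47 in Per1-/- and 0.954, 6.31 and 5.69 in Per2-/-. It rose by a log2 fold change of 1.4996 ± 0.17 (SE), adjusted p = 0.00556, against 0.25 ± 0.17 in macrophage-like cells. Tnfrsf1b was at 3.75, 6.02 and 6.73 CPM in WT, 6.13, 16.4 and 13.1 in Per1-/- and 4.31, 10.2 and 8.83 in Per2-/-. It rose by a log2 fold change of 1.14 ± 0.15 (SE), adjusted p = 0.0112, and Tnfrsf11a, at 3.76, 5.84 and 6.66 CPM in WT, 5.81, 11.1 and 10.1 in Per1-/- and 3.37, 7.90 and 5.52 in Per2-/-, by 0.81 ± 0.14 (SE), adjusted p = 0.0294, whereas it had -0.18 ± 0.14 in macrophage-like cells. The sum of macrophage markers was 363, 1305 and 1722 CPM in WT and 945, 4526 and 3978 CPM in Per1-/-. The share of macrophage-like cells was 1.43%, 5.65% and 4.66% in WT and 3.83%, 21.03% and 14.8% in Per1-/- on days 4, 7 and 10. The part of this share in the differences of the receptors was not tested, and the lack of calls within macrophage-like cells does not bear on it, since 1 of 12712 genes was called there. Tnfsf18, from 294 UMI in all, rose by a log2 fold change of 2.44 ± 0.38 (SE), adjusted p = 0.0202. Its level was highest in mesothelial-like cells, in WT from 1 UMI in each library, as given above. Before thinning 3.90% of mesothelial-like cells held a UMI of it, beside 0.476% of macrophage-like and 0.123% of fibroblast-like cells. Mesothelial markers in whole cultures summed to 21.4, 9.47 and 6.55 CPM in WT and 19.0, 34.5 and 36.0 CPM in Per1-/-. Of the cells, 0.692%, 0.419% and 0.249% in WT and 1.13%, 2.04% and 0.9996% in Per1-/- were mesothelial-like. Their part in the difference was not tested. Tnf had a log2 fold change of 1.28 ± 0.31 (SE), adjusted p = 0.0957. With the Y-linked level as a covariate no member was called, at folds for Tnfrsf13b (1.83), Tnfrsf1b (0.90), Tnfrsf11a (0.98) and Tnfsf18 (1.25). Without day 10 no member was called either, with 1.58, 1.14, 0.84 and 2.21 for these 4 in the same order. Without WT or Per1-/- on day 7 or day 10 only Tnfrsf13b and Tnfsf13os were called, and Tnfrsf11a also lost its call without WT day 4. Without Per1-/- day 4 there were 12 calls, among them Tnf and Tnfrsf1a. With all libraries DESeq2 called 8 members, beside 1325 genes in all. For Per1-/- against Per2-/- 0.548% of genes and 1 member, Tnfsf13os, were called, a call lost when any library but Per1-/- day 4, Per2-/- day 4 or WT day 7 was left out, while 9 members were called without Per1-/- day 4 and 3 without Per2-/- day 4. For Per2-/- against WT 0.00532% of genes and no member were called by edgeR, and 7 of 39 had an unadjusted p under 0.05, beside 8.59% of genes. DESeq2 called 2 members there, Eda2r and Tnfrsf13b, beside 292 genes in all. For the fits that leave out a library the number of all genes called is not given, so whether members stand out there is not shown.

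Between days 4 and 7 the whole cultures had 8 members called, 7 higher and 1 lower, beside 9.64% of genes. Tnfrsf13b (2.33 ± 0.18, adjusted p = 3.41e-04), Tnfrsf1b (1.17 ± 0.15, adjusted p = 0.00383), Tnfrsf11a (0.99 ± 0.14, adjusted p = 0.00544) and Tnfsf12 (0.48 ± 0.10, adjusted p = 0.0227) rose, by the log2 fold changes given. So did the scarce transcripts Tnfrsf14 (1.58 ± 0.28, adjusted p = 0.0127), Edaradd (1.53 ± 0.25, adjusted p = 0.00963) and Tnfsf18 (2.04 ± 0.40, adjusted p = 0.0200), and Tnfsf11 fell (-0.91 ± 0.16, adjusted p = 0.0134). Without Per1-/- day 7 there were 3 calls (Tnfrsf11a, Tnfrsf13b and Tnfrsf1b), without Per2-/- day 7 there were 4 and without Per1-/- day 4 there were 5. Tnfsf12 was also not called without Per2-/- day 4 or WT day 7, and neither it nor Tnfsf18 without day 10. Tnfrsf11a thus rose in whole cultures and fell in fibroblast-like cells over the same days. Tnf also had opposite signs: in whole cultures it was at 0.986, 2.36 and 2.19 CPM in WT, 2.20, 7.40 and 3.56 in Per1-/- and 1.41, 1.73 and 1.16 in Per2-/-, higher on day 7 than on day 4 in each genotype (1.15 ± 0.31, adjusted p = 0.0616), while in macrophage-like cells it was lower in each. The difference between the sums and the class was not tested. The share of macrophage-like cells over the same step went from 1.43%, 3.83% and 2.06% in WT, Per1-/- and Per2-/- to 5.65%, 21.03% and 10.6%. Mesothelial markers went from 21.4, 19.0 and 28.7 CPM to 9.47, 34.5 and 10.3 CPM, so that they were higher with Tnfsf18 in Per1-/- and lower in the other genotypes. For day 10 against day 7 1.56% of genes and 1 member, Tnfsf13 (7.01 ± 0.46, adjusted p = 1.68e-04), were called, and 2 without WT day 7, with Tnfrsf11b.

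Other genes of the pathway were taken from 3 lists: 33 of TNF signal transduction, 7 of TNF shedding and processing and 33 that TNF is known to induce. Values given for their genes are log2 fold changes. In macrophage-like cells 33, 7 and 26 of them were tested and none was called by edgeR in any contrast. For Per1-/- against WT the lists had 4, 3 and 4 genes at an unadjusted p under 0.05, beside 9.96% of all genes, and medians of 0.04, 0.02 and 0.26, where all genes had 0.00. In neuron-like cells 6 of 31 signal transduction genes were called for day 7 against day 4, 5 lower and 1 higher, beside 16.1% of all genes, a share near that of the list. The genes are given as values and not as a result about the list. The lower ones were Birc2 and Traf6, which attach ubiquitin chains, Chuk, a kinase of the NF-kB pathway, Traf4 and the TAK1 partner Tab2. The higher one, named after its value was seen, was a stress kinase, with Map3k5 0.49 ± 0.14, adjusted p = 0.0416. Values were Birc2 -0.52 ± 0.10, adjusted p = 0.00623; Chuk -0.44 ± 0.09, adjusted p = 0.00800; and Traf4 -0.51 ± 0.11, adjusted p = 0.0114. The others were Traf6 -0.52 ± 0.13, adjusted p = 0.0254, and Tab2 -0.32 ± 0.09, adjusted p = 0.0297. Of the 7 shedding genes 2 were called, beside the same share: Timp3, the inhibitor of ADAM17, rose (0.39 ± 0.10, adjusted p = 0.0228), and Frmd8, a partner of iRhom, fell (-0.56 ± 0.17, adjusted p = 0.0488). Of 19 TNF-induced genes 2 fell, beside 16.1% of all genes (Nfkbiz -1.02 ± 0.21, adjusted p = 0.00856, and Tnfaip2 -0.98 ± 0.27, adjusted p = 0.0338). For day 10 against day 7 in these cells 1 of 31 and 2 of 19 genes of these lists were called, beside 7.25% of all genes. Ripk1, a kinase of the TNFR1 complex, fell (-0.86 ± 0.14, adjusted p = 0.00522), and Nfkb2 (2.86 ± 0.27, adjusted p = 1.46e-04) and Sod2 (0.44 ± 0.08, adjusted p = 0.0111) rose; Nfkb2 averaged 1.17 CPM over the day 7 libraries and 8.59 CPM over those of day 10. As for Tnfsf13, day 10 and the change of feature table cannot be told apart there. In fibroblast-like cells 1 gene of each list, of 30, 33 and 7 tested, fell from day 4 to day 7, beside 1.91% of all genes called: Ptgs2 -1.54 ± 0.27, adjusted p = 0.0421; Traf4 -0.59 ± 0.10, adjusted p = 0.0455; and Frmd8 -0.59 ± 0.10, adjusted p = 0.0418. Ptgs2 encodes the inducible cyclooxygenase. In whole cultures Casp8 rose in Per1-/- against WT (0.56 ± 0.10, adjusted p = 0.0366), as 1 of 33 signal transduction genes tested beside 2.51% of all genes, and with the macrophage markers given above.

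From day 4 to day 7 in whole cultures 2 of 33 signal transduction, 1 of 7 shedding and 2 of 32 TNF-induced genes were called, beside 9.64% of all genes. Values were Traf4 -0.84 ± 0.12, adjusted p = 0.00438, and Ptgs2 -1.57 ± 0.24, adjusted p = 0.00699, both lower. The complement gene C3, the inhibitor of caspase-8 Cflar and the TNF sheddase Adam17 were higher, with C3 2.93 ± 0.53, adjusted p = 0.0148, Cflar 0.48 ± 0.10, adjusted p = 0.0281, and Adam17 0.54 ± 0.13, adjusted p = 0.0442. Macrophage markers in whole cultures were higher over the same step, from 363, 945 and 502 CPM in WT, Per1-/- and Per2-/- to 1305, 4526 and 2275 CPM, and their part in these changes was not tested. No list gene was called in whole cultures in the other contrasts, nor between genotypes in neuron-like or fibroblast-like cells. Of all genes at most 1.56%, 0.00684% and 0% were called there. For Per1-/- against WT, Per1-/- against Per2-/- and Per2-/- against WT, TNF-induced genes had medians of 0.11, 0.37 and -0.27 in fibroblast-like cells. At an unadjusted p under 0.05 there were 4, 10 and 5 of 30, beside 8.55%, 14.1% and 7.84% of all genes. In whole cultures medians were 0.47, 0.62 and -0.07, with 13, 13 and 3 of 32, beside 17.4%, 17.9% and 8.59%. The list was not tested as a set.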

How the data were processed

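The authors deposited UMI counts per gene and barcode. Per the file headers Cell Ranger 4.0.0 was used for days 4 and 7 (31053 genes listed) and 6.0.0 for day 10 (32285 genes), whereas the submitters' processing notes name Cell Ranger 7.1 and mm10. A barcode was kept from 3000 UMI upwards if its mitochondrial share did not exceed 20% (81999 of 95603), and 8442 doublets were removed by Scrublet rank (scanpy 1.11.5). Cells were clustered without members and pathway genes (2000 variable genes, 30 components, 15 neighbours, Leiden resolution 1, leidenalg 0.10.2) and named by marker lists. A list had to be raised at least 2-fold on average with 3 markers raised, except fibroblast-like, given by presence of its markers with no other list raised. Clusters mostly of doublets, of under 50 cells, with more markers of another list among their 10 leading genes, or of low depth with none of their own there, stayed unnamed. Counts were summed per library and class and tested across all genes with edgeR 4.0.16 (TMM, filterByExpr, quasi-likelihood F-test on day and genotype, Benjamini-Hochberg over all genes tested, threshold 0.05, two-sided). The labels name no cultures or embryos, so p-values measure the spread between these libraries. Members at 5 CPM or more in a class, or called, are given per library; list genes that passed are named, at most 5 per list and contrast by smallest p. Members and lists were chosen with earlier results of these data known. The script was tested on simulated data. DESeq2 1.42.0 was an alternative. Gene positions are from GENCODE M21. One gene of the numbered receptors is not reported here.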

Additional observations from a re-analysis of the deposited data

Results flagged for a closer look

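Some members had log2 fold changes of opposite sign in 2 classes, each in all 3 of its pairs of libraries, and the difference between the classes was not tested. They were picked by this criterion. The share of all genes that meet it is not given, so the list is no result about the family. Of the folds below, those of Eda and Tnfrsf12a in neuron-like and of Tnfrsf11a in fibroblast-like cells passed the edgeR test, and the others did not. For day 7 against day 4 the log2 fold change of Eda was -0.58 in neuron-like and 0.60 in fibroblast-like cells. Tnfrsf11a had 0.66 in neuron-like and -1.75 in fibroblast-like cells. Tnfrsf12a had -0.99 in macrophage-like, 0.96 in neuron-like and -0.54 in fibroblast-like cells. Tnfrsf1b had 0.28 in macrophage-like and -0.41 in fibroblast-like cells. For day 10 against day 7 Tnfrsf21 had -0.21 in macrophage-like and 0.36 in neuron-like cells. For Per1-/- against Per2-/- Ltbr had -0.14 in macrophage-like, 0.42 in neuron-like and 0.29 in fibroblast-like cells.

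A cluster that entered no comparison, of 841 cells led by Ighm, Siglech and Kynu with Cx3cr1 among its leading genes, held Tnf at 31.2 CPM (95% interval 28.7 to 33.8), beside 23.4 CPM in macrophage-like cells. Both values are summed over libraries. The libraries of the cluster ran from 14.1 to 59.7 CPM and overlapped those of macrophage-like cells. It carried all 14 macrophage markers and was left unnamed because the dendritic-cell marker Siglech, and none of the macrophage markers, was among its 10 leading genes.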

How the results depend on the processing

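The labels give no replicate numbers; libraries of a day were matched across genotypes by the day term of every fit, and those of a genotype across days by the genotype term. Of the counts of members called under other settings 283 stayed within 1.5 times and 58 did not; of the log2 folds of called members and of Tnf 376 kept sign and side, 80 lost the call, 4 gained it and 5 changed sign; and of the class levels 261 moved by under 1 SD of the libraries and 1 by more. The cause of the moves was not tested. With DESeq2 the calls were 1 in macrophage-like cells (day 7 against day 4), 0 in neuron-like cells (day 10 against day 7), 1, 2, 1, 4 and 2 in fibroblast-like cells (Per1-/- against WT and against Per2-/-, then Per2-/- against WT, day 7 against day 4, day 10 against day 7) and 8, 8, 2 and 2 in whole cultures (the 3 genotype contrasts and day 10 against day 7). In the same order DESeq2 called 406, 1097, 216, 500, 144, 1506, 440, 1325, 1210, 292 and 620 genes in all. With no filter on low counts they were 1 in macrophage-like cells (day 7 against day 4), 1 in fibroblast-like cells and 2 in whole cultures (both Per1-/- against Per2-/-). With the Y-linked covariate they were 1 in fibroblast-like cells (day 7 against day 4) and 0 and 0 in whole cultures (Per1-/- against WT and against Per2-/-), and without day 10 0, 0 and 0 in these comparisons. At Leiden resolution 0.5 they were 0 in fibroblast-like cells (day 7 against day 4) and 2 in neuron-like cells (day 10 against day 7), and Ltbr in fibroblast-like cells was at 29.4 CPM. Limited, after seeing the data, to the clusters in which the fibroblast list scored highest, fibroblast-like cells had 1 call for day 7 against day 4. Leaving out 1 library at a time gave, in the same order of comparisons, 0 to 0, 0 to 2, 0 to 4, 0 to 0 and 1 to 1 calls in macrophage-like cells, 0 to 0, 0 to 0, 0 to 0, 1 to 4 and 0 to 1 in neuron-like cells, 0 to 1, 0 to 2, 0 to 0, 0 to 2 and 1 to 2 in fibroblast-like cells, and 2 to 12, 0 to 9, 0 to 0, 3 to 9 and 1 to 2 in whole cultures. Among these other settings the number of all genes called is given for DESeq2 alone. The log2 fold of Tnf for Per1-/- against WT in macrophage-like cells was -0.58 with the Y-linked covariate, -0.014 without day 10, and, chosen after seeing the data, -0.13 with the cluster of Cx3cr1 and Siglech cells added; leaving out 1 library at a time it ranged from -0.23 to 0.31. Depth limits members of few UMI, and classes of few cells such as mesothelial-like cells (14 to 123 per library).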

Other observations

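The unnamed cluster of Cx3cr1 and Siglech cells held 70.4 CPM of Tnfrsf1a, 62.4 of Tnfrsf1b, 45.4 of Tnfrsf13b and 49.8 of Tnfrsf11a. Macrophage-like cells held 70.3, 60.2, 45.7 and 57.6 CPM of these. Tnfsf12 was at 53.6 CPM (22.2 to 72.6 over libraries) in the cluster against 71.7 CPM in macrophage-like cells, with overlap. Tnfrsf21 was at 47.6 CPM (30.1 to 93.4 over libraries) against 15.4 CPM (13.6 to 18.2) in macrophage-like cells, with no overlap. How many of all genes separate the cluster in this way is not given. Tnfsf15 was at 7.96 CPM (2.54 to 11.8 over libraries) against 2.88 CPM in macrophage-like cells, whose highest library was at 4.65 CPM, so the ranges overlapped.

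The 2 macrophage-like clusters, 1 of 4703 cells led by Fcrls and Pf4 and 1 of dividing cells led by histone and mitosis genes, stood apart in the level of Tnfrsf1b, 65.9 CPM (53.9 to 75.4 over libraries) against 41.1 CPM (32.8 to 49.0), and of Tnfsf12, 76.4 against 55.8 CPM, in ranges that did not overlap. Tnf stood at 22.1 and 27.8 CPM summed over libraries, with library medians of 26.2 and 26.3 CPM and ranges that overlapped. Tnfrsf1b and Tnfsf12 are named because their ranges did not overlap, and the share of all genes that separate in this way is not given. These levels are a description of clusters and were not tested.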
